A study of Mus musculus with 4 samples.

Results

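The complement transcripts examined here were 9 genes of the cascade, taken by symbol from the 22609 gene symbols that each hippocampus library lists. They comprised the C1q chains C1qa, C1qb and C1qc, the central components C3 and C4b, the soluble regulator Serping1, the receptor C3ar1, and the membrane regulators Cd55 and Cd59a. All 9 passed the filter on low counts and were among the 14527 genes tested. RNA-Seq was performed on 4 libraries, with 2 per genotype (FLOX+GCI and FBN-ARO-KO+GCI), to compare the transcriptome of the injured hippocampus with and without aromatase in forebrain neurons. All mice were 3 to 5 months old, female, ovariectomized 1 week earlier, and subjected to global cerebral ischemia (GCI) by 20 min of bilateral common carotid occlusion with 24 h of reperfusion. FBN-ARO-KO mice are Cyp19a1 Cre/LoxP conditional knock-outs in which Cre is driven by the CaMKIIα promoter in excitatory neurons, so that aromatase in glia is not targeted, and FLOX mice are their controls. No sham library was analysed here, so levels are those of the injured hippocampus and not a response to ischemia. Whether each library came from 1 mouse is not given in the sources used here, and p-values therefore measure the spread between these libraries, which may be technical.

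Complement is a cascade of proteases and their substrates. In the classical pathway, C1q, built of A, B and C chains, binds a target and activates the proteases C1r and C1s, which cleave C4 and C2 and so form the enzyme that cleaves C3. Fragments of C3 tag the target and signal through receptors such as C3AR1, while C1 inhibitor (Serping1), CD55 and CD59 hold the cascade back at its start, at C3 cleavage and at pore assembly. In the brain, C1q is made mainly by microglia, C4 largely by astrocytes and other glia, and tagged synapses can be removed by microglia. C3 is also a widely used marker of one reactive astrocyte state.

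The libraries held between 24333396 and 33076795 counts on genes, so that 3 counts, the smallest number taken as detectable, corresponded to between 0.0907 and 0.123 CPM. This floor covers counting error only. Levels are given below as CPM, the count scaled to library depth with TMM factors. The targeted gene Cyp19a1 (mm9, chromosome 9, 54013744 to 54115917) was counted 4 times and 1 time in the FLOX+GCI libraries and 2 times in each FBN-ARO-KO+GCI library, which does not allow a check of the genotype. All 7 hippocampal neuron markers listed, Prox1 and Neurod6 among them, passed the filter, and their summed level was between 723 and 807 CPM in each library. Across genes, the log2 ratio of genotypes fell with the GC content of the transcript (Spearman's rho -0.55 over 13869 genes, which are not independent replicates), and FBN-ARO-KO+GCI replicate 2 differed from replicate 1 in the same way (rho -0.48). For this reason the members' differences are also given after adjustment for the length and GC content of transcripts, called the GC and length correction.

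None of the 9 complement transcripts differed between FBN-ARO-KO+GCI and FLOX+GCI past an adjusted p of 0.05 in the quasi-likelihood test of edgeR, corrected over all genes by the Benjamini-Hochberg method, where 0.0138% of all genes tested did. Adjusted p-values of the members ran from 0.345 for C1qc to 0.959 for C3. At an unadjusted p under 0.05 the count was 0 of 9, beside 16.5% of all genes tested, made up of 8.72% above and 7.82% below FLOX+GCI. DESeq2 also called 0, although its independent filtering left an adjusted p for only the 3 C1q chains. Point estimates were below 0 for 8 members and above 0 for Cd55, with a median log2 fold change of -0.13 against -0.01 for all genes tested. With the GC and length correction the median of the members was -0.01, and all 3 C1q chains were above 0. The corrected log2 fold changes of the other members were -0.52 for Serping1, -0.41 for C3ar1, -0.17 for C4b, -0.10 for Cd59a, -0.01 for C3 and 0.12 for Cd55. The libraries of the 2 genotypes were fully apart for 1 of 9 members, C1qc, as they were for 51.8% of all genes tested.

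**Figure D1:**
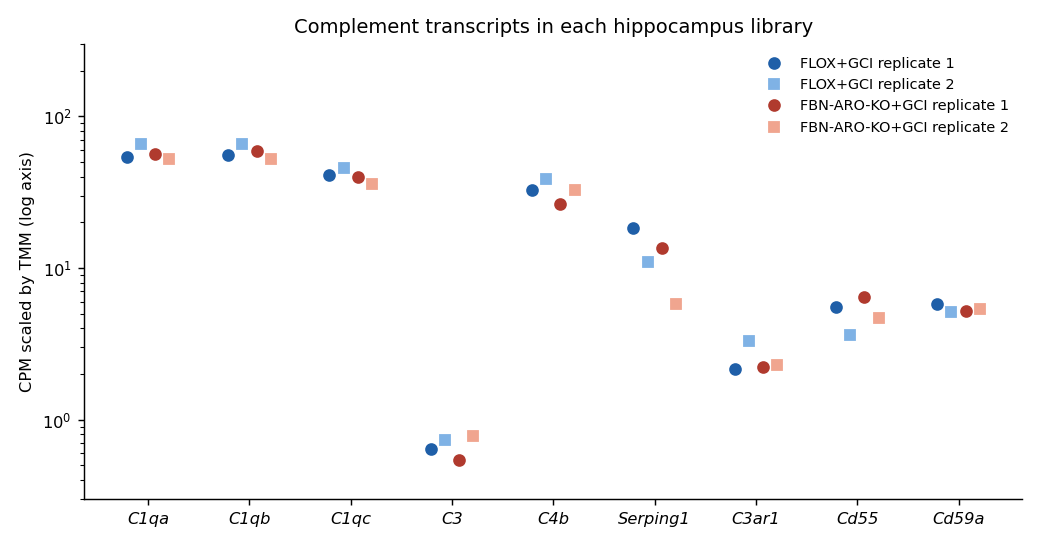
Level of each complement transcript in each library, in CPM scaled by TMM on a logarithmic axis. Blue points are FLOX+GCI, red points are FBN-ARO-KO+GCI, circles are replicate 1 and squares replicate 2. C1q chains lie between 35.8 and 65.8 CPM, C3 lies between 0.543 and 0.785 CPM, and Serping1 has the widest scatter.

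The C1q chains were the most abundant members. C1qa, C1qc and C1qb lie next to each other on the minus strand of chromosome 4 of mm9, at 136451832 to 136454718, 136445719 to 136448980 and 136436044 to 136442102. C1qa had 54.1 and 65.6 CPM in the FLOX+GCI libraries, against 56.7 and 52.3 CPM in those of FBN-ARO-KO+GCI. C1qb had 55.2 and 65.8 CPM in the FLOX+GCI libraries, against 59.2 and 52.7 CPM in those of FBN-ARO-KO+GCI. C1qc had 41.2 and 45.5 CPM in the FLOX+GCI libraries, against 39.6 and 35.8 CPM in those of FBN-ARO-KO+GCI. For all 3 chains FLOX+GCI replicate 2 was the highest library and FBN-ARO-KO+GCI replicate 2 the lowest, and for C1qa and C1qb the other 2 libraries crossed between genotypes. The log2 fold change was -0.13 for C1qa (standard error, SE, 0.11; adjusted p = 0.542 by edgeR), -0.11 for C1qb and -0.20 for C1qc, and all 3 turned above 0 with the GC and length correction, at 0.15, 0.12 and 0.03. Their transcripts contain 59.5%, 57.4% and 57.5% G and C, against a median of 50.6% for the genes tested. The 95% intervals of the fold between genotypes, FBN-ARO-KO+GCI over FLOX+GCI, were 0.763 to 1.09 for C1qa, 0.773 to 1.11 for C1qb and 0.739 to 1.02 for C1qc. Without FLOX+GCI replicate 2, the log2 fold changes were 0.01 for C1qa and 0.02 for C1qb.

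The proportions of the chains to each other varied less than their levels. C1qc made up 27.4% and 25.7% of the counts of the 3 chains in the FLOX+GCI libraries, against 25.5% and 25.4% in those of FBN-ARO-KO+GCI. The Wilson 95% intervals of these shares, which cover counting error only, ran from 25.99% to 28.8% in FLOX+GCI replicate 1, the highest, and from 24.1% to 26.8% in FBN-ARO-KO+GCI replicate 2, the lowest, and overlapped. C1qa and C1qb were counted almost equally, with a C1qa to C1qb ratio between 0.959 and 0.996 in each library. Per length of transcript, C1qa and C1qb had 55.0 and 53.5 CPM per kb over the 4 libraries and C1qc had 33.7 CPM per kb. The level per kb placed C1qa at the percentile of 91.1 among the tested genes with a transcript length, C1qb at 90.8 and C1qc at 84.1.

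Upstream sequences of the 2 chains for which the RefSeq promoter table (build GRCm38.p6) has an entry are shown because these genes had parallel levels over the libraries, beside that of C3, the member with the lowest level. Each is the 250 bases before the start of the gene, 5′ to 3′ on the minus strand, with the motif matches listed afterward in capitals. C1qb lies at chr4:136886201-136886450, C1qc at chr4:136892915-136893164 and C3 at chr17:57228137-57228386.
C1qb: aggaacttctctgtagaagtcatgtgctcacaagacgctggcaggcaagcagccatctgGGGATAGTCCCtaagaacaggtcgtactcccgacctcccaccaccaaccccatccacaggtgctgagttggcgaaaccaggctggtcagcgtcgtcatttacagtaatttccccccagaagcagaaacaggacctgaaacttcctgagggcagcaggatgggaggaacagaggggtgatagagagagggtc
C1qc: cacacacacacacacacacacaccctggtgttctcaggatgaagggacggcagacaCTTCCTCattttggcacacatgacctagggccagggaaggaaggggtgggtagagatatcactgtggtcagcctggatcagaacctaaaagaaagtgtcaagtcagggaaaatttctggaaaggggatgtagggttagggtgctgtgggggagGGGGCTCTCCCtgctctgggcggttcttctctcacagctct
C3: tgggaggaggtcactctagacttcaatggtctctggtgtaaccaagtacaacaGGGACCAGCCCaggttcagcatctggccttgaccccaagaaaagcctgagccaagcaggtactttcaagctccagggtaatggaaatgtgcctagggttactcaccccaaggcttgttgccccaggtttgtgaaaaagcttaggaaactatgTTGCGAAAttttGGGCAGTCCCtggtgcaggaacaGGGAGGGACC

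Promoters were found for 6 of the 9 members, and those of C1qa, C4b and Serping1 are not shown. Motifs were searched on both strands as letters only, so that a match describes the sequence and not a bound site. The PU.1 motif GAGGAAG, read by a factor of myeloid cells, occurred in C1qc, beginning 194 bases before the start and on the opposite strand, and in 10.6% of the 32851 promoters of the table. The C/EBP motif TTGCNNAA, read by factors of acute-phase genes, occurred in C3, beginning 45 bases before the start, and in 9.56% of all promoters. The AP-1 motif TGANTCA occurred in C3ar1 (6.75% of all promoters), and the interferon-stimulated response element, TTTC on either side of any 2 bases, in Cd59a (2.98%). NF-kB letters, GGG and CC around any 5 bases, occurred in all 6 promoters and in 45.8% of all promoters, and adjacent matches of this motif on opposite strands overlap in the sequences above. The STAT motif TTCNNNGAA (7.02% of all promoters) and the palindromic estrogen response element, GGTCA and TGACC around any 3 bases (0.0639%), had no match in these 6 windows.

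C1q is made largely by microglia, and the levels of microglia markers were therefore set beside it. Each of the 16 microglia markers was tested, and the median of their log2 fold changes was 0.01. None passed an adjusted p of 0.05, and 1 of 16, Fcrls, was higher at an unadjusted p under 0.05, beside 8.72% of all genes tested. Their summed level was 655 and 617 CPM in the FLOX+GCI libraries, against 621 and 696 CPM in those of FBN-ARO-KO+GCI, so that the groups overlapped. Cx3cr1, the fractalkine receptor of microglia, was nearly constant, at 58.8 and 60.3 CPM in the FLOX+GCI libraries, against 58.7 and 60.2 CPM in those of FBN-ARO-KO+GCI. The summed C1q level was 2.56 and 2.94 times that of Cx3cr1 in FLOX+GCI and 2.65 and 2.34 times in FBN-ARO-KO+GCI, again with overlap. P2ry12, a purinergic receptor of homeostatic microglia, scattered more, with 37.4 and 22.4 CPM in the FLOX+GCI libraries, against 27.1 and 48.4 CPM in those of FBN-ARO-KO+GCI, and its highest and lowest libraries were the lowest and highest for C1q. In bulk tissue, fewer cells of a type and less RNA per cell cannot be told apart. Blood leukocyte markers were at or near 0, with 0 of 10 passing the filter and a summed level between 0.814 and 1.60 CPM.

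**Figure D2:**
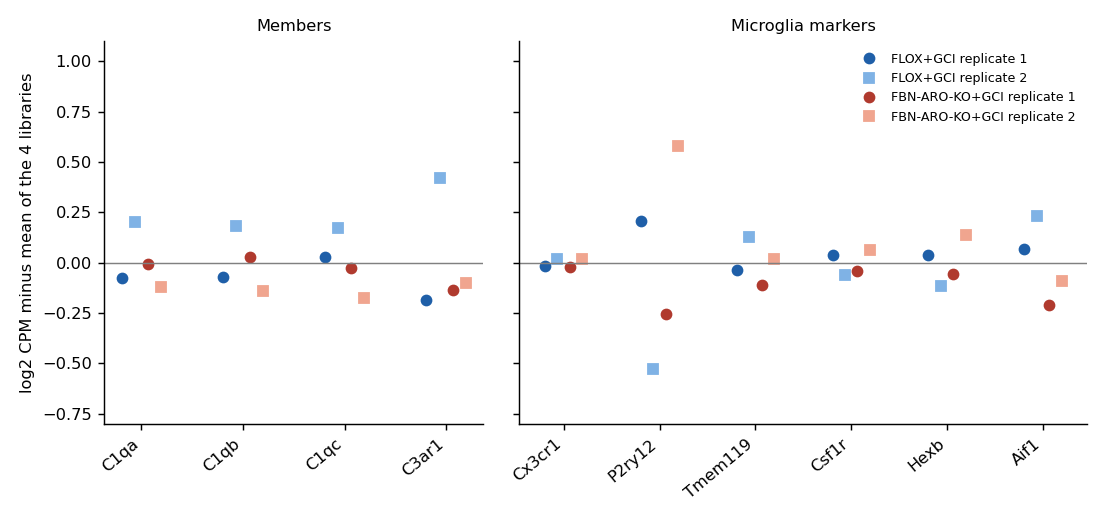
C1q chains and C3ar1 (left) and the first 6 microglia markers of the list (right), each as log2 CPM minus its mean over the 4 libraries, with colors and symbols for the libraries. C1q chains are highest in FLOX+GCI replicate 2 and lowest in FBN-ARO-KO+GCI replicate 2, while Cx3cr1, at 58.7 to 60.3 CPM, is nearly flat.

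C3ar1, the receptor for the C3a fragment, was much less abundant. The gene lies on chromosome 6 of mm9 from 122797156 to 122806179. C3ar1 had 54 and 81 counts in the FLOX+GCI libraries, against 74 and 67 in those of FBN-ARO-KO+GCI, or 2.15 and 3.28 CPM against 2.23 and 2.29 CPM. FLOX+GCI replicate 2 stood above the other 3 libraries, which lay close together. The log2 fold change was -0.27 (SE 0.28, adjusted p = 0.637 by edgeR), with a 95% interval of the fold from 0.530 to 1.30, and it was 0.06 without FLOX+GCI replicate 2.

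C4b, the substrate of C1s, was the most abundant member after the C1q chains in CPM. The gene lies on chromosome 17 of mm9 from 34865325 to 34880827. C4b had 32.6 and 38.4 CPM in the FLOX+GCI libraries, against 26.5 and 32.8 CPM in those of FBN-ARO-KO+GCI. The higher FBN-ARO-KO+GCI library was just above the lower FLOX+GCI library, so that the groups overlapped. The log2 ratio was -0.26 (SE 0.14, adjusted p = 0.370 by edgeR), and -0.17 after the GC and length correction. The 95% interval of the fold was 0.671 to 1.04. With 1 library left out, the log2 fold change ran from -0.42 without FBN-ARO-KO+GCI replicate 2 to -0.11 without FBN-ARO-KO+GCI replicate 1. C4b shares sequence with its neighbor C4a. At least 21.9% of the 5330 windows of read length (50 bases) in its transcript also occur in C4a. Reads from these windows cannot be placed uniquely. Only 3459 of the 5330 windows were found in the C4b locus of the genome, so that sharing by the rest could not be seen. C4a itself had between 17 and 38 counts, or 1.74% to 4.14% of the counts of both genes, and its log2 fold change was -0.29.

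C3, the component on which all pathways converge, was low in all libraries, though above the floor of 3 counts. The gene lies on chromosome 17 of mm9 from 57343397 to 57367559. C3 had 16 and 18 counts in the FLOX+GCI libraries, against 18 and 23 in those of FBN-ARO-KO+GCI, or 0.638 and 0.730 CPM against 0.543 and 0.785 CPM. The FBN-ARO-KO+GCI libraries enclosed the FLOX+GCI libraries. The log2 fold change was -0.05 (SE 0.40, adjusted p = 0.959 by edgeR). The 95% interval of the fold ran from 0.502 to 1.86, so that a change within this range is not excluded. Its level of 0.131 CPM per kb was at the percentile of 1.15 among tested genes, beside 6.05 CPM per kb for C4b.

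**Figure D3:**
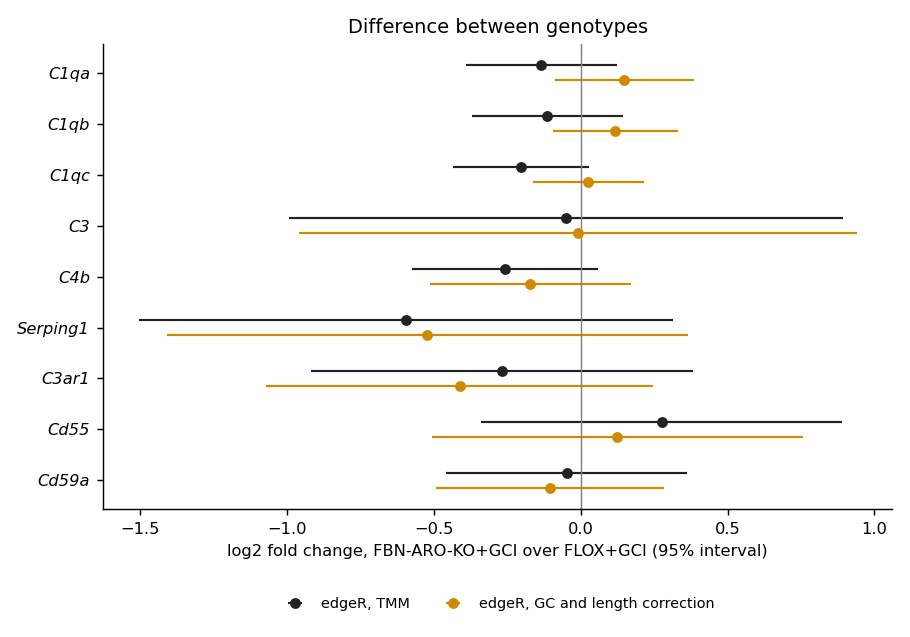
Log2 fold change of each member, FBN-ARO-KO+GCI over FLOX+GCI, with its 95% interval from edgeR (black) and with the GC and length correction (orange). All intervals include 0. The C1q chains pass from below to above 0 with the correction, while Serping1 stays lowest, at -0.59 and -0.52.

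Serping1, which encodes C1 inhibitor, had the largest point estimate and the largest spread. The gene lies on chromosome 2 of mm9 from 84605544 to 84615601. Serping1 had 460 and 272 counts in the FLOX+GCI libraries, against 451 and 169 in those of FBN-ARO-KO+GCI, or 18.4 and 11.0 CPM against 13.6 and 5.77 CPM. In both genotypes replicate 1 was above replicate 2, by 1.66-fold in FLOX+GCI and 2.36-fold in FBN-ARO-KO+GCI, and the groups overlapped. At each replicate number FBN-ARO-KO+GCI was below FLOX+GCI, but the labels do not say that a number marks a shared batch. The log2 fold change was -0.59 (SE 0.39, adjusted p = 0.450 by edgeR), and the 95% interval of the fold was 0.353 to 1.24. It was -0.11 without FBN-ARO-KO+GCI replicate 2, -0.18 without FLOX+GCI replicate 1, -0.92 without FLOX+GCI replicate 2 and -1.35 without FBN-ARO-KO+GCI replicate 1.

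Summed levels of vessel wall and meningeal markers had the same order of libraries as Serping1, although not every marker followed it. The summed level of 9 meningeal fibroblast markers was 459 and 266 CPM in the FLOX+GCI libraries, against 306 and 199 CPM in those of FBN-ARO-KO+GCI, and 7 of the 9 were above in replicate 1 of both genotypes. Of the 8 mural cell markers 5 were above in replicate 1 of both genotypes and 3 (Cspg4, Kcnj8 and Abcc9) below, and Vtn was the largest part of their sum. They summed to 305 and 212 CPM in the FLOX+GCI libraries, against 245 and 151 CPM in those of FBN-ARO-KO+GCI. For the 8 endothelial markers, 7 of them above in replicate 1 of both genotypes, the sums were 285 and 211 CPM against 240 and 176 CPM, and for the 6 border macrophage markers, all 6 above in replicate 1 of both genotypes, 14.1 and 7.87 CPM against 10.5 and 4.68 CPM. In each of these lists, as for Serping1, the libraries ranked FLOX+GCI replicate 1, FBN-ARO-KO+GCI replicate 1, FLOX+GCI replicate 2 and FBN-ARO-KO+GCI replicate 2 from highest to lowest. This order was chosen after the values were seen, and 4.71% of all genes tested had it. Among the members 1 of 9 had it, and among further pathway genes 6 of the 22 tested outside the neural group described below. None of the defining markers of these 4 lists was at 0, and their part in the result was not tested.

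**Figure D4:**
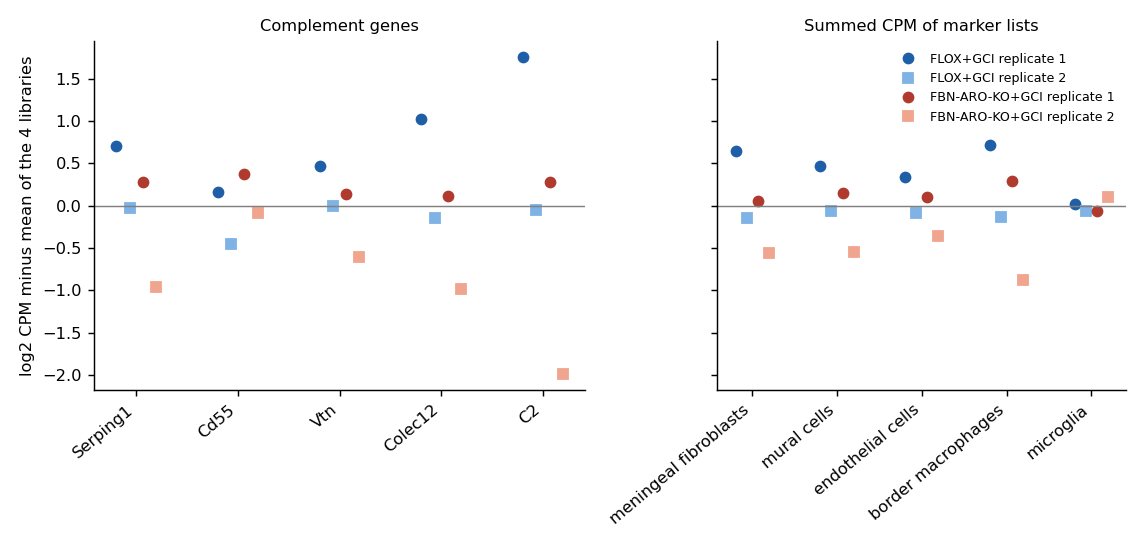
Serping1, Cd55 and 3 further complement genes (left) and the summed CPM of 5 marker lists (right), each as log2 CPM minus its mean over the 4 libraries. Serping1, Vtn, Colec12 and C2 have the same order of libraries as the meningeal, mural, endothelial and border macrophage lists. The microglia list, from 617 to 696 CPM, does not. Vtn is itself the largest part of the mural sum, and the order was chosen after the values were seen.

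The membrane regulators were of similar abundance. Cd55, which speeds the decay of the enzymes that cleave C3, lies on chromosome 1 of mm9 from 132335604 to 132359321. Cd55 had 5.55 and 3.61 CPM in the FLOX+GCI libraries, against 6.39 and 4.68 CPM in those of FBN-ARO-KO+GCI. Replicate 1 was above replicate 2 in both genotypes, and the groups overlapped. Cd55 was the only member with a positive log2 fold change, 0.28 (SE 0.26, adjusted p = 0.606 by edgeR), with a 95% interval of the fold from 0.791 to 1.85, and the value was near 0 without FLOX+GCI replicate 2. Its copy Daf2 (Cd55b) had 0 counts in every library, which allows up to 0.123 CPM, although 15.8% of the windows of Cd55 occur elsewhere in the genome and most of these lie in Daf2.

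Cd59a, which blocks assembly of the membrane attack complex, was measured at a level like that of Cd55. The gene lies on chromosome 2 of mm9 from 103935958 to 103955511. Cd59a had 5.78 and 5.11 CPM in the FLOX+GCI libraries, against 5.19 and 5.36 CPM in those of FBN-ARO-KO+GCI, so that the FBN-ARO-KO+GCI libraries lay inside the range of FLOX+GCI. The log2 fold change was -0.05 (SE 0.17, adjusted p = 0.908 by edgeR), with a 95% interval of the fold from 0.729 to 1.28. Its neighbor Cd59b had 5 and 3 counts in the FLOX+GCI libraries, against 5 and 3 in those of FBN-ARO-KO+GCI, and 23.4% of the windows of Cd59a also occur in Cd59b. No window of the C1q chains, C3 or Serping1 occurred elsewhere in the genome, so that this limit applies to C4b, Cd55 and Cd59a and hardly to C3ar1 (0.164%).

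Compared per length of transcript, the members ranked C1qa, C1qb, C1qc, Serping1 (6.89 CPM per kb), C4b (6.05), Cd59a (2.97), Cd55 (2.00), C3ar1 (0.578) and C3. Neighbors whose libraries overlapped in this order were C1qa and C1qb, and Serping1 and C4b. Reads from windows shared with a copy are not placed uniquely, so that C4b, Cd55 and Cd59a may be ranked too low. The C1q chains were above Serping1, Cd55 and Cd59a in every library on this scale.

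Of the other genes of the pathway, 58 were listed by role and 55 had a symbol in the files. After the filter, 31 were tested, and 0 passed an adjusted p of 0.05 by edgeR. Of these 31, 12 had a log2 fold change above 0 and 19 below, with a median of -0.17, and -0.08 after the GC and length correction. At an unadjusted p under 0.05 there were 3 of 31, 1 higher and 2 lower, beside 16.5% of all genes tested. The groups did not overlap for 13 of 31, beside 51.8%. The list includes 9 tested neural proteins, described last, which are not components of the cascade. All 3 genes under 0.05 and 7 of the 13 without overlap were in that neural group.

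Among recognition molecules other than C1q, 2 of 7 passed the filter. Mbl1, Fcnb and Colec10 had 0 counts in every library. Colec12, a scavenger receptor of the collectin family found in vessels, had 20.1 and 8.96 CPM in the FLOX+GCI libraries, against 10.8 and 5.02 CPM in those of FBN-ARO-KO+GCI, corresponding to a log2 ratio of -0.88 (SE 0.43, adjusted p = 0.349 by edgeR). For Colec12 the value was -1.35 without FLOX+GCI replicate 2, with an edgeR adjusted p of 0.0290, and -0.18 without FLOX+GCI replicate 1. Colec11 had between 13 and 22 counts per library and a log2 fold change of -0.23.

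All 6 classical and lectin pathway proteases tested had log2 fold changes below 0, with a median of -0.82, and none passed the test. Of all genes tested, 7458 of 14527 were below 0. Several of the 6 rested on few counts. C1s had 14 to 38 counts per library, C1rl 8 to 16 and Masp2 3 to 33, with log2 fold changes of -0.85, -0.79 and -1.52. C1ra, a copy of the gene for the protease C1r, had 46 and 31 counts in the FLOX+GCI libraries, against 35 and 23 in those of FBN-ARO-KO+GCI. These are 1.84 and 1.26 CPM against 1.06 and 0.785 CPM, without overlap (log2 fold change -0.74, SE 0.35, adjusted p = 0.334 by edgeR). C2, whose product forms the C3-cleaving enzyme with C4, had 103 and 29 counts in the FLOX+GCI libraries, against 49 and 9 in those of FBN-ARO-KO+GCI, with replicate 1 well above replicate 2 in both genotypes. Its log2 fold change was -1.54 (SE 0.74, adjusted p = 0.340 by edgeR). Without FLOX+GCI replicate 2 it was -2.17, with an edgeR adjusted p of 0.0486, without FBN-ARO-KO+GCI replicate 1 it was -3.09, and without FLOX+GCI replicate 1 it was -0.37, neither of these past the threshold. Masp1, a lectin pathway protease, had a log2 fold change of -0.05. Masp1 had the highest CPM of the 6, from 7.06 to 8.87.

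In the alternative pathway, Cfb had between 9 and 16 counts, and Cfp, for properdin, had 3.39 and 5.27 CPM in the FLOX+GCI libraries, against 5.22 and 4.78 CPM in those of FBN-ARO-KO+GCI, corresponding to a log2 ratio of 0.21 (SE 0.24). Cfd was listed at 0 in every library. Of the components of the membrane attack complex, C8g alone was tested, with 10 to 18 counts per library and a log2 fold change of 0.25. C8a and C9 had 0 counts in every library, and C6 and C8b at most 1.

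Soluble regulators were led by Clu, for clusterin, with 1057 and 1114 CPM in the FLOX+GCI libraries, against 1094 and 1046 CPM in those of FBN-ARO-KO+GCI. The log2 ratio was -0.02 (SE 0.07), and 0.14 after the GC and length correction. Vtn, for vitronectin, which pericytes also express and which is on the mural list, had 121 and 87.1 CPM in the FLOX+GCI libraries, against 96.8 and 57.7 CPM in those of FBN-ARO-KO+GCI. Vtn had a log2 fold change of -0.43, with an edgeR adjusted p of 0.394, and was above in replicate 1 of each genotype, as Serping1 was. Of the 22 pathway genes tested outside the neural group described below, 8 were above in replicate 1 of both genotypes and 1 below, whereas among all genes tested 21.7% were above and 24.6% below.

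The further membrane regulators Cr1l and Cd46 had log2 fold changes of 0.18 and 0.44. In both, the FBN-ARO-KO+GCI libraries lay above those of FLOX+GCI, while 51.8% of all genes tested had no overlap in either direction. Cd46 had 11 and 10 counts in the FLOX+GCI libraries, against 23 and 13 in those of FBN-ARO-KO+GCI. These are 0.439 and 0.406 CPM against 0.694 and 0.444 CPM (SE 0.46, adjusted p = 0.642 by edgeR). Cr1l, the rodent inhibitor of C3 activation, had 8.10 and 7.18 CPM in the FLOX+GCI libraries, against 8.35 and 8.98 CPM in those of FBN-ARO-KO+GCI (SE 0.15, adjusted p = 0.554 by edgeR). Of 8 receptors, 4 were tested. Itgam and Itgb2, the chains of complement receptor 3 on microglia, had log2 fold changes of 0.18 and 0.17, with 16.7 to 25.3 CPM for Itgam and 5.63 to 7.10 CPM for Itgb2. Cd93, an endothelial gene once taken for a C1q receptor, had a log2 fold change of -0.36, and C5ar1, for the C5a receptor, had 10 to 32 counts per library.

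The last group held proteins of neurons that share domains with complement proteins. They are not components of the cascade, and whether any of them regulates it was not examined here. Here 4 of the 9 tested were above 0 and 5 below. C1ql3, a secreted synaptic C1q-like protein, had the smallest p of all 31 genes. It had 204 and 183 CPM in the FLOX+GCI libraries, against 264 and 319 CPM in those of FBN-ARO-KO+GCI, so that both FBN-ARO-KO+GCI libraries were above both FLOX+GCI libraries. The log2 ratio was 0.59 (SE 0.11, adjusted p = 0.238 by edgeR), and 0.68 after the GC and length correction. DESeq2 gave an adjusted p of 3.9e-05 and the likelihood ratio test of edgeR 0.000423, so that the call of C1ql3 depends on the test. Without FLOX+GCI replicate 1 the edgeR adjusted p was 0.0161. C1ql2 had 79.2 and 53.5 CPM in the FLOX+GCI libraries, against 49.6 and 47.7 CPM in those of FBN-ARO-KO+GCI, corresponding to a log2 ratio of -0.45 (SE 0.17, adjusted p = 0.266 by edgeR), and -0.12 after the GC and length correction. Its transcript contains 63.4% G and C.

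**Figure D5:**
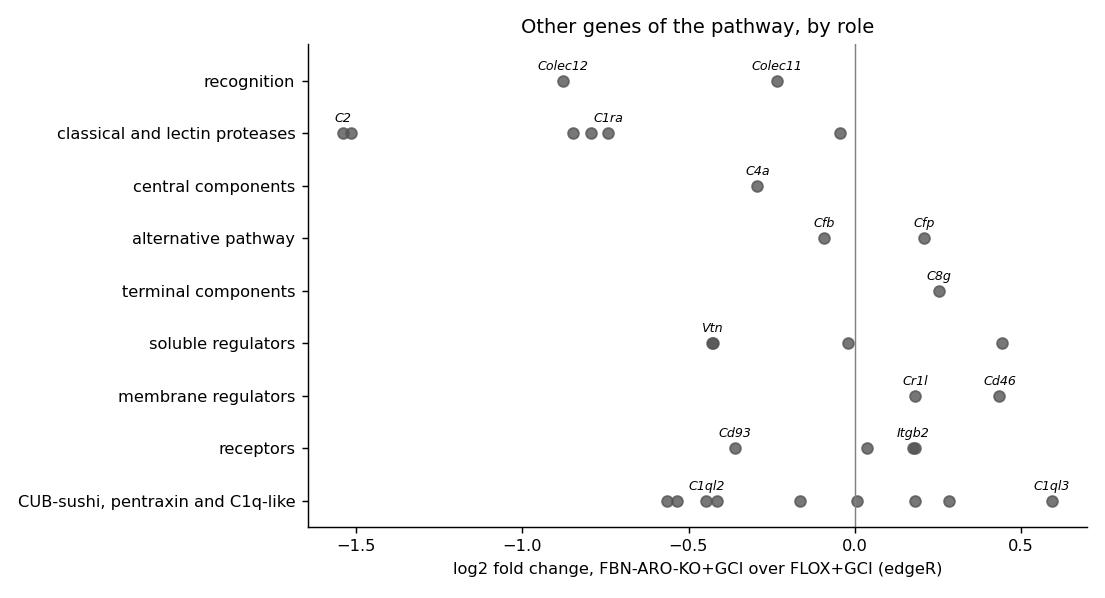
Log2 fold change of the 31 tested genes of the pathway list, FBN-ARO-KO+GCI over FLOX+GCI, by role, with labels on genes of smallest p in each role. Proteases lie from -1.54 to -0.05, membrane regulators at 0.18 and 0.44, and none passed an adjusted p of 0.05 by edgeR.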

How the data were processed

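The authors sequenced 50 nt single-end reads of 4 hippocampus libraries. Per the labels, reads were aligned to mm9 with TopHat2 2.0.8b and counted with HTSeq, and the authors deposited raw counts per gene symbol. The strand setting and annotation release are not given in the sources used here. Libraries held between 24333396 and 33076795 counts on 22609 symbols, and 5 counters of unassigned reads, 43.4% to 45.5% of each file, were left out. The counter of alignments that were not unique made up 35.1% to 36.5% of each file. Whether it counts a read once or once per alignment is not given, so it is not taken as a share of reads. Reads aligned to more than 1 place were left out, and copies of a gene can therefore be undercounted.

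The genotypes were tested with edgeR 4.0.16 (R 4.3.3), using its quasi-likelihood method on all genes that passed filterByExpr at a minimum of 10 counts. TMM factors were applied, and p-values were adjusted by Benjamini-Hochberg with a threshold of 0.05. The study used DESeq, and DESeq2 1.42.0 was an alternative. Standard errors were taken as the log2 fold change over the square root of F, and 95% intervals from the degrees of freedom of the fit. An exact permutation test of 2 against 2 libraries cannot go below p = 0.333. The GC and length correction fits splines (5 degrees of freedom) to the deviation of each library from the gene mean and enters as an offset. Other alternatives were size factors, library totals, filters, a replicate block, the likelihood ratio test and leaving out each library. Positions, lengths and GC content came from GENCODE M1 (NCBIM37, the same build as mm9), using the longest coding transcript. Replicates of a group were separate libraries (chi-square per degree of freedom 9.33 and 11.0). Fits were tested on simulated counts.

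Members and gene lists were chosen with earlier results of these data known. The text names the 9 members, the 2 genes of smallest p in each role of the pathway list, copies of members and, with the first 6 microglia markers, Cyp19a1. Masp1, C1s, C1rl, Masp2, Clu, Itgam, C5ar1, Fcrls, Prox1, Neurod6, Nptx2, Cspg4, Kcnj8, Abcc9 and genes with at most 1 count were added after the values were seen. Marker lists not described in the report are given with the other observations. The values of 1 pathway gene that the rule names are not reported here, and it stays in the counts and medians of the list. Protein sequences were not used here.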

Additional observations from a re-analysis of the deposited data

How the results depend on the processing

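The count of 0 members past an adjusted p of 0.05 held in all 13 alternatives, with DESeq2 leaving an adjusted p for 3 of the 9. For all genes the count of 2 became 292 with DESeq2, 294 with the likelihood ratio test, 5 with every gene of at least 1 count, and 0 to 193 with 1 library left out (0 without either FBN-ARO-KO+GCI library, 193 without FLOX+GCI replicate 1 and 127 without FLOX+GCI replicate 2). With the replicate block it was 184, and with the block and the GC and length correction 14. Same-numbered libraries deviated together only weakly (r = 0.13 across genes), and the labels do not say that a number marks a shared batch. With the replicate block, 4 pathway genes passed (C1ql3 higher, Colec12, C2 and Vtn lower), and 0 members, the adjusted p of Serping1 being 0.0579. With the block and the GC and length correction together, 0 pathway genes passed, with adjusted p-values of 0.0941 for C1ql3, 0.0627 for Colec12, 0.14 for C2 and 0.182 for Vtn. The pathway count was 1 with DESeq2 and 1 with the likelihood ratio test (C1ql3 in both), and 0 to 3 with 1 library left out (Nptx2 and C1ql3 without FLOX+GCI replicate 1, Colec12, C2 and C1ql2 without FLOX+GCI replicate 2).

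The C1q chains reversed with the GC and length correction (0.15, 0.12 and 0.027 for C1qa, C1qb and C1qc), and with that correction and the replicate block (0.16, 0.12 and 0.028). With 1 library left out, log2 fold changes ran from -0.26 to 0.0093 for C1qa, -0.23 to 0.017 for C1qb, -0.33 to 0.19 for C3, -0.54 to 0.065 for C3ar1, -0.0020 to 0.62 for Cd55 and -0.14 to 0.046 for Cd59a. They ran from -0.63 to 0.18 for Colec11, -0.88 to 0.10 for C4a, -0.37 to 0.18 for Cfb and -0.075 to 0.56 for Cfp. Without a change of sign, they ran from -0.42 to -0.11 for C4b, -3.09 to -0.37 for C2, -1.54 to -0.18 for Colec12 and -0.86 to -0.11 for Vtn. The cause of these changes was not tested.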

Other observations

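The marker lists not described above showed no gene past an adjusted p of 0.05 with edgeR. The 10 astrocyte markers summed to between 7393 and 8276 CPM per library, the 10 neuron markers to between 14148 and 15215 CPM, and the 8 oligodendrocyte markers to between 3985 and 4675 CPM. The 10 choroid plexus markers, 6 of them tested, summed to 68.1 and 56.5 CPM in the FLOX+GCI libraries and to 47.1 and 54.5 CPM in those of FBN-ARO-KO+GCI. At an unadjusted p under 0.05, which 16.5% of all genes tested passed, there were 2 choroid plexus markers, both lower, and 3 hippocampal neuron markers, 1 higher and 2 lower. The same cut was passed by 2 astrocyte and 2 neuron markers, in each list 1 higher and 1 lower, and by 1 oligodendrocyte marker, which was higher. It was also passed by 1 mural, 1 endothelial and 1 border macrophage marker, each lower, and by 0 meningeal fibroblast markers.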
